A study of Mus musculus with 8 samples.

Results

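Dentate granule neuron nuclei were described from single-nucleus RNA sequencing of mouse forebrain, in which RNA molecules of single nuclei are counted as unique molecular identifiers (UMIs). Nuclei were first kept at 1000 or more UMIs, 300 or more detected genes and at most 5% mitochondrial UMIs. A nucleus was then taken as a dentate granule neuron if it held at least 2 UMIs of Prox1 and at least 3 UMIs over C1ql3, Trpc6, Synpr and Chst9 with at least 2 of them detected. It could hold at most 2 UMIs over Gad1 and Gad2, at most 2 of Tcf7l2, and 0 over Mog, Aqp4, Cx3cr1 and Pdgfra. Of 44762 nuclei that passed the quality filter, 464 met the rule, or 1.04%. These 12 genes chose the members, so their values are given only as a description.

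The tissue was a small cube of forebrain next to the lesion site, taken from male Swiss Webster mice aged 10 weeks, an outbred stock. The labels set 4 groups of 2 libraries each: control, BCAS, TBI and BCAS+TBI. TBI is traumatic brain injury, and BCAS is given only as an abbreviation of a surgery that the study's title ties to cerebral hypoperfusion. Control mice underwent a control surgery that is not described further, and the time between surgery and collection is not given in the sources used here. The titles call the libraries of a group biological replicates, but none says how many mice a library pools, and each p-value measures the spread between these libraries only. The libraries held 28118725 to 56135192 UMIs. Of these, 4 libraries of 28118725 to 33363564 UMIs (control 1, BCAS 1, TBI 1 and BCAS+TBI 2) stood apart from 4 of 42651388 to 56135192 UMIs (control 2, BCAS 2, TBI 2 and BCAS+TBI 1). They are called library set 1 and library set 2, each set holds 1 library of each group, and the division was read from the totals and not from a label. Between libraries, 217 of 44544 distinct quality barcodes occurred more than once. No barcode was a member in more than 1 library, and 3 member barcodes were found among the quality barcodes of another library.

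Dentate granule neurons are the principal excitatory cells of the dentate gyrus, the entry station of the hippocampus. They receive the perforant path from the entorhinal cortex and send mossy fibres, whose terminals are rich in zinc, to pyramidal neurons of field CA3 and to mossy cells of the hilus. The homeobox factor Prox1 sets and maintains their identity, they fire sparsely, and new granule neurons are added in adult rodents, a process that brain injury is known to alter.

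The members were found in every library but in unequal numbers. The controls gave 23 and 99 nuclei, BCAS 21 and 77, TBI 34 and 77, and BCAS+TBI 84 and 49. Library by library these were 0.455% (95% Wilson interval 0.303 to 0.682) and 1.75% (1.44 to 2.13) of quality nuclei in the controls. They were 0.417% (0.273 to 0.637) and 1.22% (0.975 to 1.52) in BCAS. The share was 0.689% (0.494 to 0.962) and 1.07% (0.858 to 1.34) in TBI, and 1.496% (1.21 to 1.85) and 0.986% (0.747 to 1.30) in BCAS+TBI. The intervals cover counting error only. In control and in BCAS the intervals of the 2 libraries did not overlap, and the 4 groups overlapped with each other.

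The share was 1.06% ± 0.333 (SD, n = 4) with TBI and 0.961% ± 0.645 (SD, n = 4) without it, a difference of 0.100 percentage points (exact permutation test, two-sided, p = 0.771, adjusted over 2 comparisons 0.943; the smallest p that 70 assignments allow is 0.0286). With BCAS it was 1.03% ± 0.458 and without it 0.993% ± 0.568 (n = 4 each), a difference of 0.0364 points (exact permutation test, p = 0.943). Neither surgery separated the libraries beyond their spread, and the signs of both differences turned when single libraries were left out (ranges -0.0813 to 0.364 for TBI and -0.143 to 0.290 for BCAS). Among permutations within library sets, p was 0.667 for TBI and 0.889 for BCAS (exact, 36 assignments, smallest p 0.0556).

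The libraries stood apart by library set instead. In library set 1 the share was 0.637% ± 0.262 and in library set 2 it was 1.38% ± 0.303 (SD, n = 4 each), and all 4 libraries of set 2 lay above all 4 of set 1. With each nucleus thinned to 2000 UMIs the shares were 0.179% ± 0.123 and 0.290% ± 0.105, and the sets overlapped. These thinned values rest on 3 to 19 members a library. CA pyramidal-type nuclei, taken by 2 or more UMIs over Spink8 and Fibcd1 (markers of CA pyramidal neurons) with Slc17a7 and no Prox1, made up 0.345% ± 0.0607 in set 1 and 0.356% ± 0.106 in set 2.

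**Figure D1:**
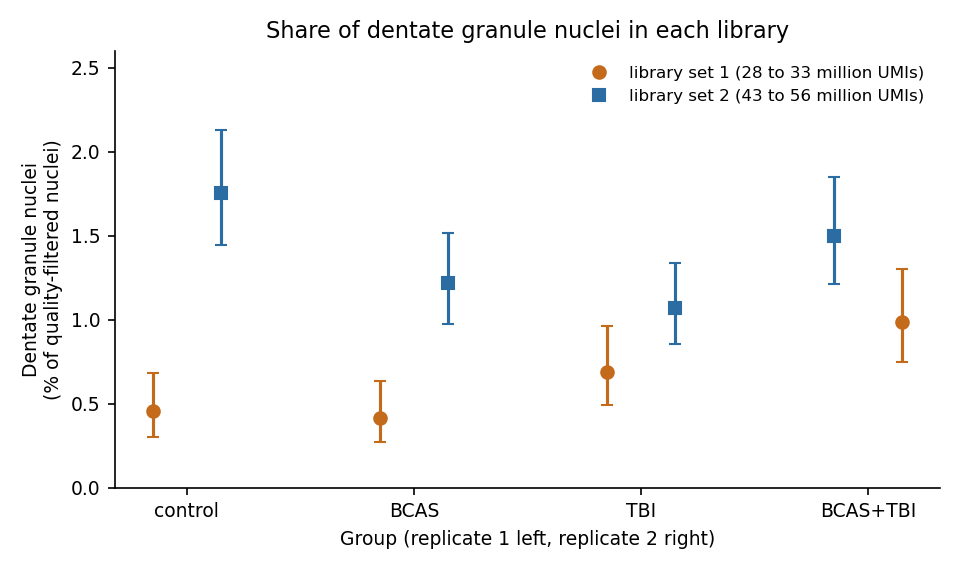
Share of dentate granule nuclei among quality-filtered nuclei (y axis, percent) in each library, by group (x axis), with 95% Wilson intervals as bars; circles are library set 1 and squares library set 2. The set 2 libraries (1.07 to 1.75%) lie above the set 1 libraries (0.417 to 0.986%), while the 4 groups overlap.

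Members held 1517 to 45341 UMIs (median 6558; quartiles 4690 and 8767) and a median of 2770 detected genes. By library the median ran from 4601 UMIs in BCAS 1 to 7998 in control 2. Summed per library, the members gave 120708 UMIs in BCAS 1 to 867103 in control 2. Levels are given below as CPM, the UMIs of a gene per 1000000 UMIs summed over the members of a library. Just inside the rule were 236 members with exactly 2 Prox1 UMIs and 23 members with a sum of 3 over the other granule genes. Just outside were 391 nuclei with 1 Prox1 UMI, 9 with a sum of 2, 15 with 3 Gad UMIs and 81 with 1 UMI of the glial genes, each meeting every other term. Mitochondrial genes gave 0.558 to 1.86% of member UMIs, above the value in the other excitatory nuclei of the same library in all 8 libraries.

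The label was checked on 20 granule genes that the rule did not use, against 7523 other excitatory nuclei, defined by 2 or more UMIs of Slc17a7 (the vesicular glutamate transporter VGLUT1) and 0 of Prox1 under the same Gad, Tcf7l2 and glial limits. Because Prox1 separates the 2 sets of nuclei by definition, the contrast is a description with no test. Of the 20 genes, 18 were higher in the members in every library and 17 did so without overlap between any of the libraries, where 13.6% and 6.34% of all 7828 genes tested did so. The rule used this contrast, and nothing is read from these counts. The median log2 ratio (pseudocount 10 CPM) was 1.61 for the list and 0.07 over all genes tested.

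Dock10, a guanine nucleotide exchange factor, stood at 727 ± 111 CPM (SD, n = 8 libraries) in the members and 41.02 ± 3.79 in the other excitatory nuclei. It was detected in 90.3% of members (median 6558 UMIs) and 16.6% of the others (median 7537 UMIs). The zinc-finger factor Glis3 was at 444 ± 99.1 against 27.9 ± 6.64 CPM, and the Notch coactivator Maml2 at 706 ± 189 against 48.3 ± 6.12. The guidance ligand Sema5a was at 573 ± 107 against 52.8 ± 6.72 CPM. Calb1, which encodes the calcium buffer calbindin and marks mature granule neurons, was at 145 ± 24.3 CPM against 44.2, and Dsp, the desmosomal protein desmoplakin, at 37.9 ± 10.3 against 0.656. C1ql2, a secreted synaptic organizer of mossy fibres, was at 18.6 ± 4.29 CPM against 1.78. In each of these genes the lowest library of the members lay above the highest of the other nuclei.

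Zbtb20, a hippocampal transcription factor, was at 3162 ± 357 CPM in the members, 606 in the other excitatory nuclei and 2127 in the 155 CA pyramidal-type nuclei. Rfx3, a factor of ciliated and neuronal cells, was at 1519 ± 176 CPM against 338. Slc17a7 was lower in every library, at 276 ± 59.0 CPM against 423.2, but the comparison nuclei were chosen by that gene. Neurod1, a neurogenic factor, was higher in 7 of 8 libraries (12.8 ± 4.59 against 6.14), and it and Tdo2 did not pass the count filter for the tests below.

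Ranked by the log2 ratio of mean CPM among genes of at least 50 CPM, and leaving out the rule's genes and predicted genes, the leading gene was Adarb2 at 1892 ± 474 CPM against 71.8. Adarb2, an RNA-editing family member widely used as a marker of caudal interneurons, had UMIs in 94.8% of members and 15.6% of the others. The next were Dock10, Maml2, Glis3, Sema5a, Frmd4b and St18. St18, a zinc-finger factor better known from oligodendrocytes, was at 230 ± 42.2 CPM against 18.3, while the oligodendrocyte gene Mobp was at 11.3 ± 9.29 against 7.59. Il1r1, the receptor of interleukin-1, was at 64.8 ± 11.9 CPM against 3.07, and its lowest library (42.3) lay above the highest of the others (4.63). The bicarbonate transporter Slc4a4 was at 847 ± 99.6 CPM against 128.

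Most genes of cortical neurons were low, and those of CA and mossy neurons less uniformly so. Of 9 cortical excitatory markers, 7 were below the other excitatory nuclei in every library, where 10.7% of all genes tested were. Of the 9, 6 were among the genes tested, and that share does not cover the others. Among the 7 were Cux2 (26.2 ± 19.0 against 113 CPM) and Fezf2 (1.43 ± 2.18 against 13.9). The CA genes Spink8 and Fibcd1 were at 4.24 ± 3.03 and 3.61 ± 3.14 CPM in the members, near the other excitatory nuclei (6.60 and 6.63) and under the CA pyramidal-type nuclei that they define. The hilar mossy cell genes Calb2 and Drd2 were at 5.77 ± 5.23 and 1.61 ± 2.00 CPM. Of 11 CA and 8 mossy markers, 1 each was below the other excitatory nuclei in every library (median log2 ratios -0.22 and 0.005). The summed level of the CA list was 64.6 to 117.5 CPM against 164 to 204 in the other excitatory nuclei. For the mossy list it was 126 to 222 CPM against 465 to 586. No gene of the cortical, CA and mossy lists reached in every library a level above that of the other excitatory nuclei except Sv2c. Of 8 thalamic genes that the rule did not use, 2 lay above the other excitatory nuclei in every library, Ntng1 (522 ± 73.2 against 303 CPM) and Synpo2 (18.8 ± 8.30 against 6.33), and were named after their values were seen. Of all genes tested, 13.6% lay above in every library, and 3 of the 8 thalamic genes were among those tested. Ntng1 encodes the adhesion molecule netrin-G1. The summed level of these 8 genes was 486 to 721 CPM in the members and 270 to 408 in the other excitatory nuclei.

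Genes of immature granule neurons and dividing cells were read next. Dcx, the microtubule protein of young neurons, was at 37.0 ± 15.8 CPM, below the other excitatory nuclei (104) in all 8 libraries. Bhlhe22, a neuronal transcription factor of the same list, was higher in all 8 (37.5 ± 23.9 against 7.99 CPM), and Sox11 in 6 of 8 (33.3 ± 13.9 against 24.4). Eomes, which marks intermediate progenitors, had 0 UMIs in the 464 members, which allows a share of up to 0.647% of nuclei with a UMI. The proliferation gene Mki67 was at 11.98 ± 8.94 CPM against 2.83, higher in all 8 libraries, from 28 UMIs in 24 nuclei. The replication gene Top2a had 5 UMIs, all in 1 nucleus of BCAS+TBI 2, and the same nucleus held 10 of 16 UMIs of C1qa, a microglial gene.

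**Figure D2:**
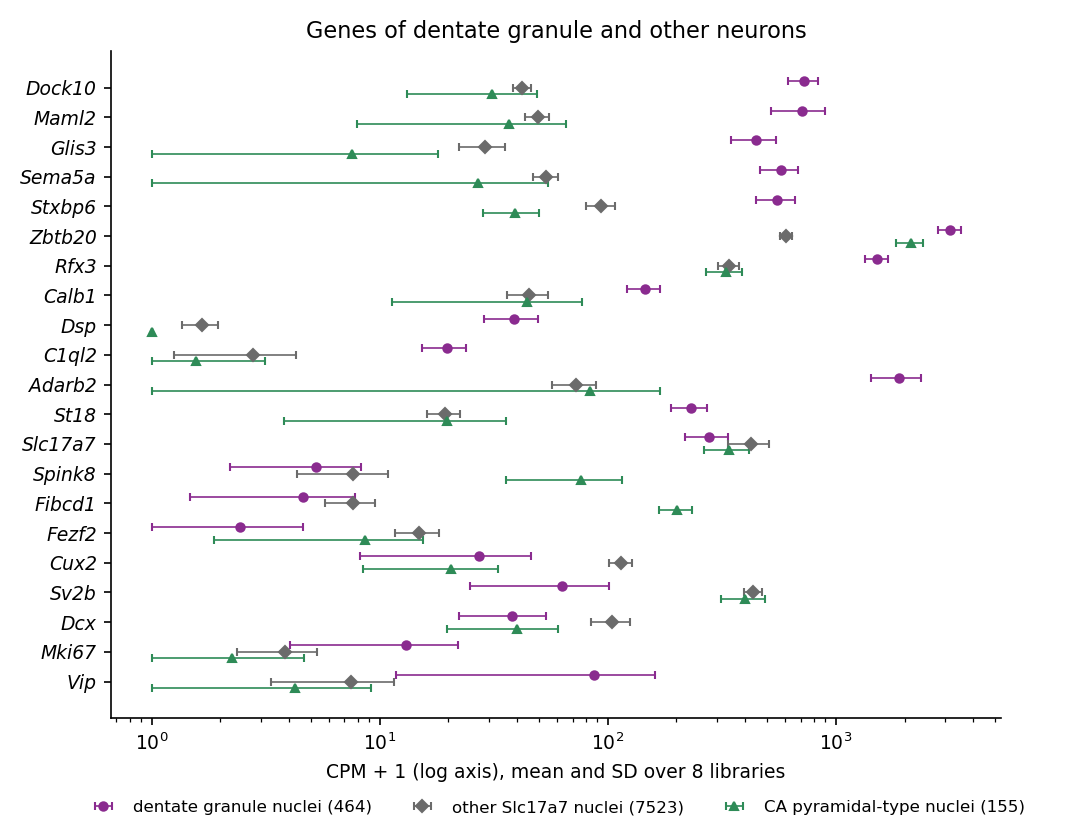
Mean level (x axis, CPM + 1, log axis) of 21 genes (y axis) in dentate granule nuclei (circles), other Slc17a7 nuclei (diamonds) and CA pyramidal-type nuclei (triangles), with SD over 8 libraries as bars. Dock10 to St18 lie to the right in dentate granule nuclei (Dock10 727 against 41.02 CPM), Spink8 and Fibcd1 in CA pyramidal-type nuclei, and Sv2b to the left.

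Some members carried interneuron RNA. ERBB4 is the neuregulin receptor of cortical interneurons, and 41 members (8.84%) held more than 5 Erbb4 UMIs, 30 of them more than 20, while 348 held 0. This limit was set after the values were seen. The 41 nuclei made up 0 and 6 of the control members, 0 and 9 in BCAS, 2 and 10 in TBI, and 10 and 4 in BCAS+TBI. They held 94.2% of all Erbb4 UMIs, 94.5% of those of Vip (the peptide of a caudal interneuron class), 92.2% of those of Dlx6os1 and 24 of the 32 UMIs of Slc32a1, the vesicular GABA transporter.

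In these 41 nuclei Vip was at 814 CPM and in the other 423 members at 6.18. The granule genes were lower in them, at 277 against 800 CPM for Dock10, 155 against 542 for Glis3 and 42.4 against 307 for Chst9. At least 3 of the 5 genes Dock10, Stxbp6, Glis3, Sema5a and Maml2 were detected in 17 of the 41 (41.5%) and in 401 of the 423 (94.8%). Prox1 is also a gene of caudal interneurons, and the label of dentate granule neuron is not borne out by these genes for most of the 41. Adarb2 stayed at 1631 CPM in the 423.

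**Figure D3:**
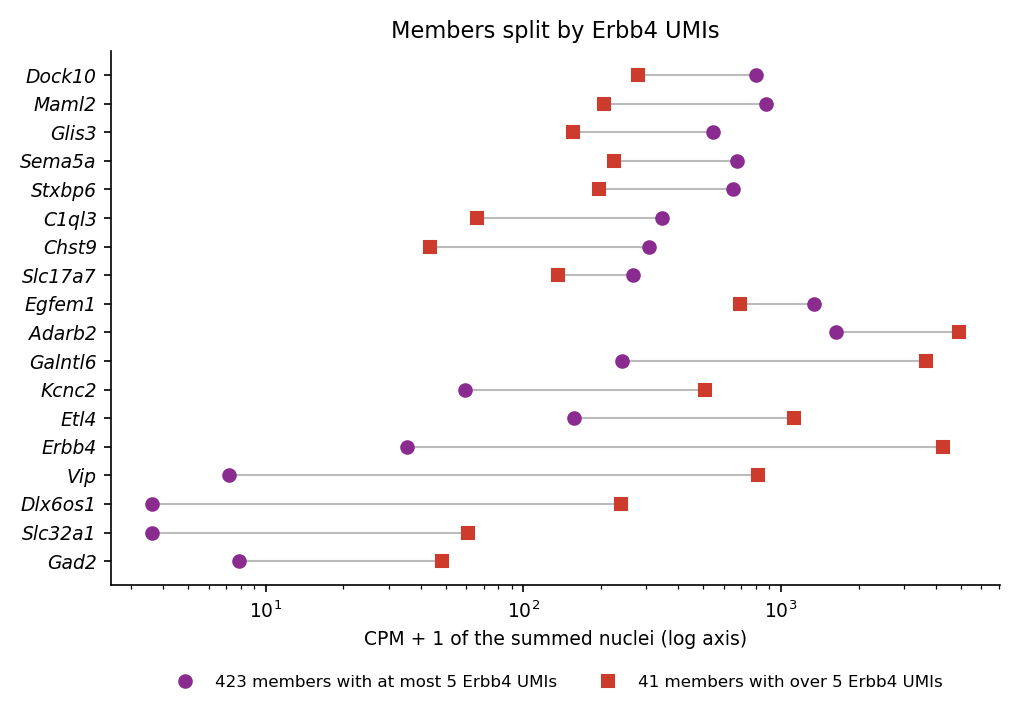
Level (x axis, CPM + 1 of the summed nuclei, log axis) of 18 genes (y axis) in the 41 members with over 5 Erbb4 UMIs (squares) and the other 423 (circles). Granule genes such as Dock10 (277 against 800 CPM) are lower and interneuron genes such as Vip (814 against 6.18) higher in the 41, and Erbb4 is higher by the choice itself.

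Markers of glia, microglia and vessels were also read. Over 8 oligodendrocyte markers the summed level was 297 to 540 CPM in the members and 147 to 221 in the other excitatory nuclei, and 76 members had UMIs of at least 3 of these genes, against 55 for 10 interneuron markers. St18 is among the 8 and had the highest level of them, while the myelin gene Mbp was at 97.6 ± 27.996 CPM against 66.7. The part of oligodendrocyte RNA in the levels of the members was not tested. Over 8 vascular markers the summed level was 12.6 to 44.7 CPM in 7 libraries and 373 CPM in BCAS 1, where 1 nucleus held 95.6% of these UMIs. Over 8 microglial markers it was 37.3 to 124 CPM in 7 libraries and 241 in BCAS+TBI 2, where 1 nucleus held 61.4%. Over 8 astrocyte markers it was 74.96 to 162 CPM and over 6 oligodendrocyte precursor markers 5.37 to 24.9, with no surgery arm apart from the other. Mog, Aqp4, Cx3cr1 and Pdgfra are at 0 by the rule.

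Receptor and channel genes differed from the other excitatory nuclei in both directions, described here without a test. Of all genes tested, 13.6% were higher and 10.7% lower in every library, and 6.34% and 5.19% without overlap. Among AMPA and kainate receptor genes, Gria1 was at 2590 ± 392 CPM against 1084 and Grik2, a kainate receptor subunit of granule neurons, at 1969 ± 299 against 1069.8. Gria4 was lower, at 332 ± 112 CPM against 927, and Gria2, at 2188 ± 137 against 1904, was higher in every library but overlapped. Of the NMDA receptor genes, Grin2a was at 2821 ± 265 CPM against 1579, and Grin1, the obligatory subunit, at 327 ± 32.2 against 383.

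Among 7 metabotropic glutamate receptor genes, Grm2 (31.0 ± 16.4 against 11.4 CPM) was higher and Grm3 and Grm8 (147 ± 45.4 against 449) lower in all 8 libraries without overlap. Of 12 GABA-A receptor genes, 5 were higher in every library, including Gabra2 (521 ± 72.5 against 343) and Gabra4 (240 ± 27.3 against 149). Gabra4 encodes the subunit that pairs with the delta subunit in tonic inhibition. Gabrd, the delta subunit, was at 35.0 ± 11.7 CPM against 28.9 and overlapped. Gabra3 was lower, at 22.2 ± 14.2 CPM against 99.3.

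Of 23 potassium channel and related genes, 6 were higher and 8 lower in every library. Kcnd2, an A-type potassium channel, was at 3594 ± 581 CPM against 2041, and Kcnj6, a G protein-gated inward rectifier, at 582 ± 50.2 against 268. Kcnq5, an M-current channel, was at 467 ± 206 CPM against 2010. Among calcium channels, the T-type gene Cacna1h was at 91.7 ± 12.7 CPM against 23.7, whereas the T-type genes Cacna1g and Cacna1i were lower, at 22.4 ± 5.43 against 40.9 and 20.5 ± 8.92 against 56.1. The members with over 5 Erbb4 UMIs held 38.0% of the Kcnq5 UMIs, so the level in the remaining members was lower still, at 358 CPM.

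Genes of mossy fibre release and wiring followed no single direction. The release regulator Cplx2 was at 173 ± 39.1 CPM against 78.3 and the vesicular zinc transporter Slc30a3 at 87.9 ± 34.9 against 64.2, both higher in all 8 libraries. Rims2, an active-zone protein, was lower at 449 ± 84.4 CPM against 929, and so was the vesicle protein Sv2b at 61.8 ± 37.9 against 432. Of 24 adhesion and wiring genes, 9 were higher and 8 lower in every library. Cdh9, a cadherin of granule to CA3 synapses, was at 641 ± 68.7 CPM against 189, the ephrin receptor Epha7 at 1006 ± 164 against 320, and its ligand gene Efna5 at 132 ± 44.2 against 432.

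Nr3c2, the mineralocorticoid receptor, was at 1026 ± 139 CPM against 306, and its glucocorticoid counterpart Nr3c1 at 86.9 ± 21.7 against 117. The corticosteroid-induced chaperone Fkbp5 was at 109 ± 32.5 CPM against 44.8. Of 16 immediate early genes, which neurons switch on with activity, 10 were lower than in the other excitatory nuclei in every library. Of all genes tested, 10.7% were. Only 4 of the 16 passed the count filter for the tests, and that share does not cover the others. For genes with few UMIs, a level of 0 in the members of a library also counts as lower. Fos had 3 UMIs in all members (0.590 ± 0.837 CPM against 9.98) and Arc 9 (3.83 ± 2.51 against 27.5). Egr2 had 0, which allows up to 0.864 CPM. Jun was the exception that was higher in every library, at 40.0 ± 21.7 CPM against 11.6. Among later activity genes, Bdnf (58.6 ± 13.0 against 42.5) and Scg2 (146 ± 33.4 against 57.4) were higher and Homer1 (133 ± 35.6 against 432) lower.

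**Figure D4:**
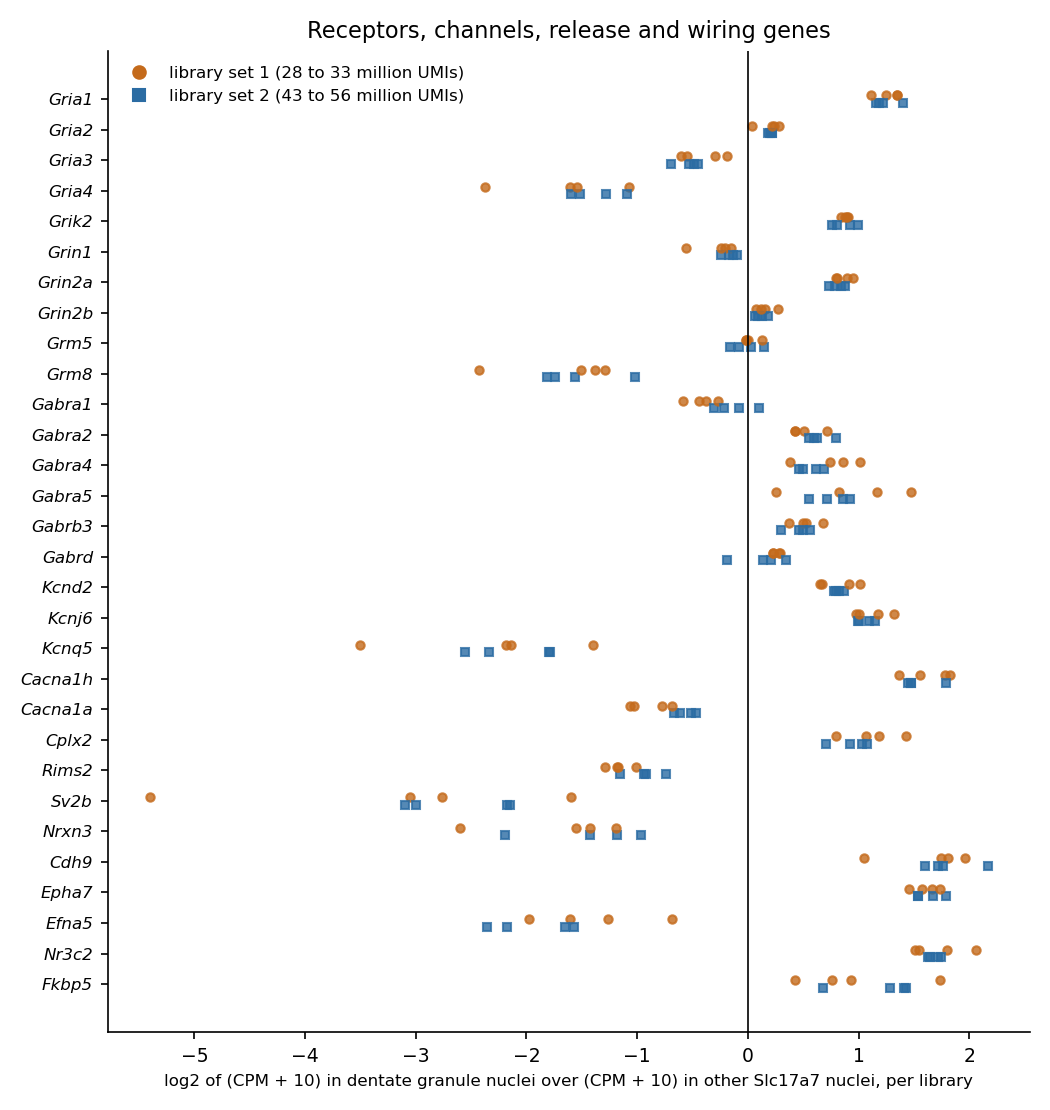
Log2 ratio of CPM + 10 in dentate granule nuclei to CPM + 10 in other Slc17a7 nuclei (x axis) for 30 genes (y axis), 1 point per library, circles for library set 1 and squares for library set 2. Gria1, Grin2a, Kcnd2, Cacna1h, Cdh9 and Nr3c2 lie above 0 and Gria4, Kcnq5, Rims2 and Sv2b below 0 in all 8 libraries.

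For the surgeries, the UMIs of the members were summed per library and fitted with edgeR's quasi-likelihood test over all 4 groups, with 7828 genes tested and Benjamini-Hochberg adjustment over all of them. No gene passed an adjusted p of 0.05 in any of 7 contrasts (0% called, TBI averaged over BCAS, BCAS averaged over TBI, their interaction, and TBI, BCAS and BCAS+TBI against control and BCAS+TBI against TBI). At an unadjusted p under 0.05 there were 81, 51, 78, 60, 68, 60 and 61 genes, and DESeq2 also called 0 in each. The contrasts against control share the control libraries. The last contrast shares the TBI libraries with TBI against control and the BCAS+TBI libraries with BCAS+TBI against control. Absence of a call does not show that levels were equal: the members summed to as few as 21 nuclei in a library.

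With the library set as a term of the model, an alternative, the spread left between libraries of a group was smaller (biological coefficient of variation 0.132 against 0.289). The calls were then 3 for TBI averaged over BCAS (0.0383% of genes tested), 5 for BCAS averaged over TBI (0.0639%) and 6 for the interaction (0.0766%). Against control they were 10 for TBI (0.128%), 8 for BCAS (0.102%) and 7 for BCAS+TBI (0.0894%), and 0 for BCAS+TBI against TBI. DESeq2 with the same term called 0 in all 7. That fit has 3 residual degrees of freedom and leans on the spread shared over genes.

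Egfem1, a gene for a protein with EGF-like and EMI domains (GRCm38 chromosome 3, 29082023 to 29691209, plus strand), was the called gene that was lower with TBI. It stood at 1521 and 1640 CPM in the controls and 1408 and 1660 in BCAS. In TBI it was at 1269 and 823 CPM and in BCAS+TBI at 699 and 922. All 4 libraries with TBI lay below all 4 without it, 928 ± 245 against 1557 ± 117 CPM (SD, n = 4 each). Such separation, in the lower direction, was seen in 0.933% of all genes tested.

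The log2 change of Egfem1 with TBI was -0.77 (SE 0.22, edgeR unadjusted p = 0.00370, adjusted p = 1.00) without the library set and -0.80 (SE 0.12, adjusted p = 0.000195) with it. With the library set in the model it passed with each library left out (log2 -0.94 to -0.62, adjusted p 1.32e-08 to 0.0345). It also passed without the 41 nuclei of over 5 Erbb4 UMIs (-0.81, adjusted p = 1.90e-06), which held 6.31% of its UMIs. DESeq2 with the library set gave an adjusted p of 0.348. In BCAS+TBI against control the change was -0.996 (SE 0.17, adjusted p = 0.00112, edgeR with the library set), and it passed in 6 of 8 fits that left out a library (-1.15 to -0.80). With BCAS, averaged over TBI, it was -0.19 (SE 0.12, adjusted p = 0.999, same fit).

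The same separation of Egfem1 was present outside the members. In the other excitatory nuclei it was at 703, 775, 634 and 714 CPM in the libraries without TBI and 595, 405, 383 and 510 in those with TBI. Over all quality nuclei it was at 562 to 721 CPM without and 365 to 504 with TBI. Whether the change in the members is larger than elsewhere was not tested.

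Erbb4 was at 12.6 and 289 CPM in the controls, 49.7 and 756 in BCAS, 273 and 575 in TBI and 949 and 351 in BCAS+TBI. With the library set in the model the log2 change was 1.16 with TBI (SE 0.20, adjusted p = 0.00161) and 0.97 with BCAS (SE 0.20, adjusted p = 0.0155). The change with TBI passed in all 8 fits that left out a library, and that with BCAS in 5 of 8, turning to -0.070 without BCAS 2. The groups overlapped. The 41 nuclei were chosen by this gene and held 94.2% of its UMIs, so it was not read again without them. They numbered 0 and 6 in the controls, 0 and 9 in BCAS, 2 and 10 in TBI, and 10 and 4 in BCAS+TBI. For most of them the granule label was not borne out. The part of their number in these changes was not tested.

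Vip, at 0 and 55.4 CPM in the controls, 0 and 121 in BCAS, 56.4 and 74.5 in TBI and 181 and 196 in BCAS+TBI, passed with the library set for BCAS (log2 1.32, SE 0.27, adjusted p = 0.0155) and for BCAS+TBI against control (2.30, SE 0.38, adjusted p = 0.000466). The first passed in 5 of 8 fits that left out a library, at -2.66 without BCAS 2, and the second in all 8. Reln, a secreted protein of interneurons and Cajal-Retzius cells, passed for TBI (1.89, SE 0.38, adjusted p = 0.0158), with 82 of its 132 UMIs in 1 library, and in 4 of 7 such fits (0.85 without control 2). The 41 nuclei held 52.3% of the Reln UMIs, and without them neither Vip nor Reln reached the count filter.

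Further genes passed with the library set between single groups. In TBI against control, Sox6, Reln, Erbb4, Etl4, Kcnc2, Ebf1, Chrm3, Rbms3, Sorcs3 and Mid1 were higher, and of these, Erbb4 aside, Ebf1 and Mid1 passed without the 41 nuclei. In BCAS against control, Gpc5, Mid1, Gm32647, Gpc6, Erbb4, Meis2, Chrm3 and Etl4 were higher, and of these, Erbb4 aside, Gpc5, Mid1 and Gm32647 passed without them. In BCAS+TBI against control, Erbb4, Vip, Etl4 and Sorcs3 were higher and Egfem1, Tmem181c-ps and 4930419G24Rik lower. The lower genes also passed without the 41 nuclei. In the other excitatory nuclei Tmem181c-ps was at 43.5 and 66.5 CPM in the controls and 2.01 and 34.2 in BCAS. There it was at 51.8 and 0.952 CPM in TBI and 0.753 and 0.975 in BCAS+TBI. Ebf1 had 0 and 5 UMIs in the controls and 21 and 17 in TBI. Mid1 was at 6.31 and 23.1 CPM in the controls and 14.1 and 124 in TBI, which overlapped. Its change in TBI against control turned to -0.55 without TBI 2. In the other excitatory nuclei Mid1 was at 10.9 and 10.03 CPM in the controls and 10.9 and 109 in TBI. Gpc5, a glypican, was at 158 and 31.1 CPM in the controls and 199 and 271 in BCAS, but at 51.7 and 88.7 in TBI and 66.3 and 172 in BCAS+TBI. Averaged over TBI its change with BCAS was 1.25 (SE 0.25, adjusted p = 0.0155, edgeR with the library set), and it passed in 5 of 8 fits that left out a library (0.62, adjusted p = 0.795, without control 2). Sox2ot, a noncoding RNA over Sox2, was lower with BCAS (-1.03, SE 0.20, adjusted p = 0.0145) and did not pass without the 41 nuclei (-0.73, adjusted p = 1.00).

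Without the library set the genes of smallest p can only be listed. For TBI they included Egfem1, Dlx6os1, Rmst and Foxo3, and for BCAS they were Sox2ot, Nck1, Igsf21, Tbc1d19 and Tbpl1. For the interaction they were Sox6, Lhfpl3, Ebf1, Kcnc2 and Mid1, and for BCAS+TBI against TBI Ankfn1, Tbpl1, Lrrc58, Peak1 and Sox6. Foxo3, a stress-responsive forkhead factor, was at 63.1 and 68.0 CPM in the controls, 49.7 and 78.4 in BCAS, 28.2 and 26.6 in TBI and 51.9 and 58.5 in BCAS+TBI. Its log2 change with TBI was -0.80 (SE 0.30, unadjusted p = 0.0170, adjusted p = 1.00, edgeR), and it did not pass in either model. Both TBI libraries lay below all others, from 6 and 15 UMIs, while the BCAS+TBI libraries overlapped those without TBI. This pattern was picked out after the values were seen, and its share over all genes was not counted. Dlx6os1 had 92.2% of its UMIs in the 41 nuclei.

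**Figure D5:**
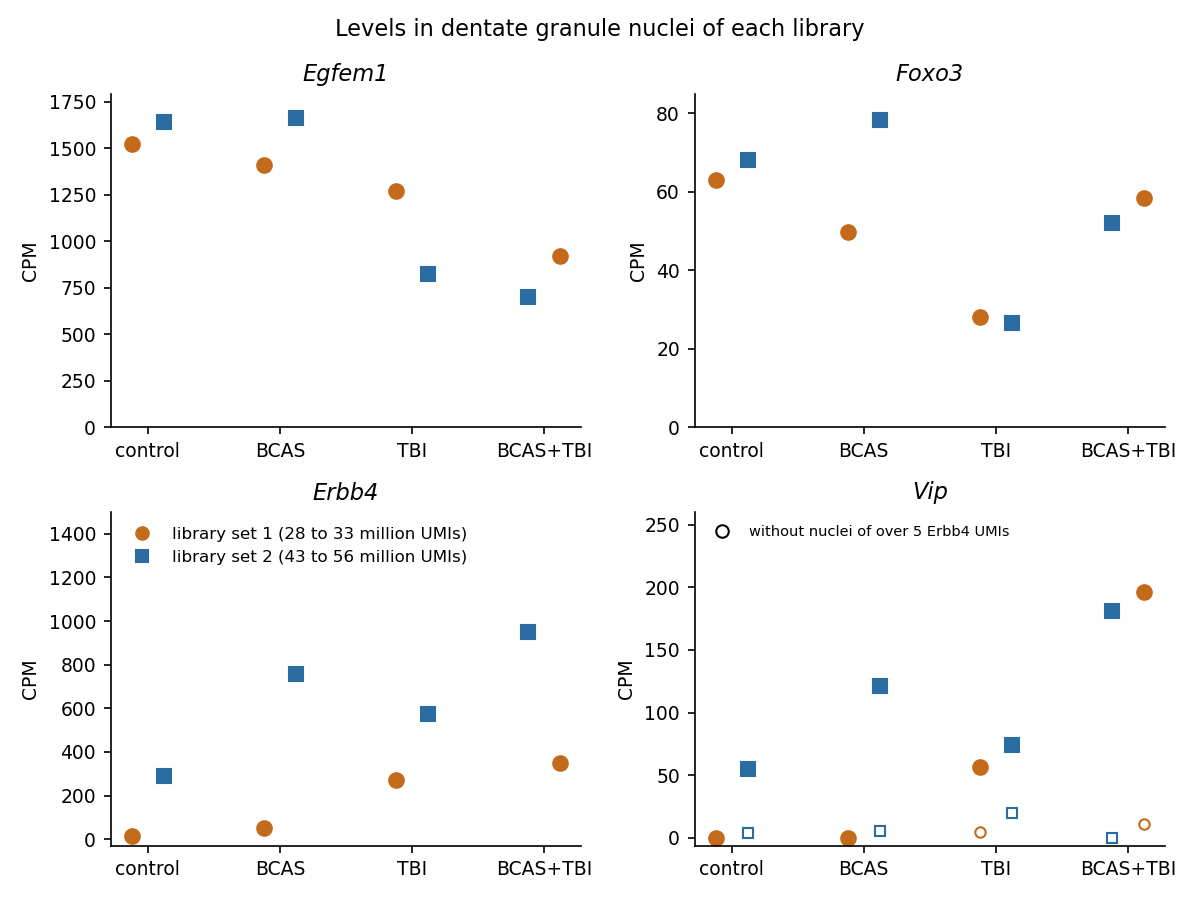
Level (y axis, CPM) of Egfem1, Foxo3, Erbb4 and Vip in the dentate granule nuclei of each library, by group (x axis), circles for library set 1 and squares for library set 2; open symbols for Vip leave out nuclei of over 5 Erbb4 UMIs. Egfem1 is at 699 to 1269 CPM with TBI and 1408 to 1660 without, and Vip with all members is at 181 and 196 CPM in BCAS+TBI and 0 to 121 in the other groups.

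The gene lists gave no call by surgery in the model without the library set, so counts and medians describe them. Of 18 tested granule identity genes, 7 were higher and 11 lower with TBI (median log2 change -0.04, against 0.01 over all genes tested), and 9 were higher and 9 lower with BCAS (median -0.01, against -0.00). Calb1 was at 170 and 130 CPM in the controls, 182 and 117 in BCAS, 132 and 165 in TBI and 136 and 124 in BCAS+TBI, a log2 change of -0.04 with TBI (SE 0.24) and -0.13 with BCAS (SE 0.24). The groups overlapped for this gene. All 9 AMPA and kainate receptor genes were tested, with medians of 0.08 for TBI and -0.02 for BCAS, and 4 NMDA receptor genes had medians of 0.07 and -0.02.

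For 11 GABA-A receptor genes the medians were -0.02 with TBI and -0.05 with BCAS. For 23 potassium channel genes they were -0.04 and -0.05, and for 14 sodium and calcium channel genes -0.01 and -0.05. For 24 adhesion and wiring genes they were -0.03 and -0.09. Gria1 was at 2215 and 2801 CPM in the controls, 2303 and 2874 in BCAS, 2331 and 3023 in TBI and 3072 and 2102 in BCAS+TBI. Within every group the library of set 2 was the higher.

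All 6 tested heat shock and chaperone genes were higher with TBI in their estimate (median 0.42, against 0.01 over all genes), and so were all 5 tested hypoxia and glycolysis genes (median 0.38), but none passed. With the library set in the model 6 of 6 heat shock genes were higher (median 0.34) and 4 hypoxia genes were higher and 1 lower (median 0.28), again with 0 calls. Hspa5, the endoplasmic reticulum chaperone BiP, was at 69.4 and 69.2 CPM in the controls, 91.1 and 42.8 in BCAS, 146 and 94.0 in TBI and 75.2 and 114 in BCAS+TBI (log2 0.71, SE 0.30, unadjusted p = 0.0352, adjusted p = 1.00, edgeR). Hsp90aa1, a cytosolic chaperone, was at 47.1 to 74.6 CPM without TBI and 66.3 to 165 with it (log2 0.73, SE 0.33, unadjusted p = 0.0430, adjusted p = 1.00, edgeR). For both genes the arms overlapped. The summed level of the heat shock list was 242 to 549 CPM without and 322 to 808 CPM with TBI. By library set it was 472 to 808 CPM in set 1 and 242 to 380 in set 2, without overlap. It was highest in BCAS+TBI 2, the library with the most mitochondrial UMIs among the members (1.86%). The part of RNA quality in it was not tested.

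Of 16 immediate early genes, 4 passed the count filter, 2 were higher and 2 lower with TBI, and none passed the test. Egr1, an activity-induced zinc-finger factor, did not pass the filter. It was at 6.31 and 11.5 CPM in the controls, 0 and 9.98 in BCAS, 18.8 and 15.97 in TBI and 21.5 and 24.1 in BCAS+TBI. All libraries with TBI lay above all without, from 50 UMIs in 33 nuclei in total. A separation in that direction was seen in 0.869% of the genes tested, but Egr1 is not among these, so that share does not cover it. It was named after its values were seen and was not tested. Inhba, an activin subunit induced by activity, was at 19.97 to 44.2 CPM without and 28.4 to 134 with TBI (log2 1.17, SE 0.53, unadjusted p = 0.0462, adjusted p = 1.00, edgeR), and the arms overlapped. The axon injury genes Atf3 and Sprr1a had 0 UMIs in the members, which allows up to 0.864 CPM.

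The library sets differed far more than the surgeries. With group in the model, 1345 of 7828 genes passed between the sets (17.2%), 464 higher in set 2 (5.93%) and 881 lower (11.3%), and DESeq2 called 447. Malat1, a nuclear noncoding RNA, was at 65339 to 91857 CPM in set 1 and 28934 to 35796 in set 2 (log2 -1.20, SE 0.07, adjusted p = 9.50e-20, edgeR). The ferritin gene Fth1 was at 480 to 843 CPM in set 1 and 110 to 210 in set 2. The ribosomal protein gene Rpl3 was at 151 to 275 CPM against 34.2 to 45.0. Ribosomal protein genes together took 0.777% ± 0.178 of member UMIs in set 1 and 0.278% ± 0.0379 in set 2 (SD, n = 4 each).

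Of the 18 tested granule identity genes outside the rule, 5 were higher in set 2 (Stxbp6, Glis3, Sema5a, Maml2 and Pdzd2) and 1 was lower (Slc17a7). Of all genes tested, 5.93% passed as higher in set 2 and 11.3% as lower. Glis3 was at 353 to 367 CPM in set 1 and 449 to 605 in set 2, and Slc17a7 at 286 to 347 and 184 to 272. C1ql3, a secreted synaptic organizer and a gene of the rule, was at 423 to 719 CPM in set 1 and 157 to 285 in set 2. The receptor gene Gria1 (2102 to 2331 against 2801 to 3072 CPM) and the potassium channel gene Kcnd2 (2825 to 3430 against 3894 to 4212) were higher in set 2 without overlap. Of the lists, 10 of 24 adhesion and wiring genes and 9 of 23 potassium channel genes were higher in set 2 (5.93% of all genes tested). None of either list was lower (11.3% of all genes tested). The part of Malat1 in these levels was not tested. Members with over 5 Erbb4 UMIs made up 3.51% ± 4.16 of the members in set 1 and 10.7% ± 3.12 in set 2 (SD, n = 4 each). All levels and calls by library set are given with these nuclei included. Each set holds 1 library of every group, so these differences did not align with a surgery.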

How the data were processed

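Each library was deposited by the authors as raw UMI counts, gene by barcode. The file headers name Cell Ranger 7.0.0 as their source; the submitters' processing notes also name GRCm38, mm10 and Seurat without roles. The settings for calling nuclei and the counting of introns are not given in the sources used here. Gene symbols are those the files pair with 54232 Ensembl IDs, and coordinates come from GENCODE vM21 on GRCm38.

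The quality filter, the rule and all alternatives were applied to the counts as deposited. Member counts were summed per library and genes kept with edgeR's filterByExpr (minimum count 10). edgeR 4.0.16 (TMM, quasi-likelihood test, 4 group means, n = 2 libraries each) gave the main result, DESeq2 1.42.0 an alternative, and Benjamini-Hochberg the adjustment. Shares were compared by exact permutation over libraries. No doublets were removed; an alternative drops the top 6% of Scrublet scores (in scanpy 1.11.5). Scripts were tested on simulated data. No sequences were used, and a few genes are not reported here.

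The members, the gene lists and the tests were chosen with earlier results of these data known. Named genes were up to 6 past the threshold without overlap or, where none passed, the 5 of smallest p, leaving out predicted, mitochondrial and rule genes; list genes were named for their lists. Identity genes were the 20 of largest log2 ratio. Genes called with the library set, and Egr1, were named after their values were seen. Python 3.11.15 and R 4.3.3 were used.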

Additional observations from a re-analysis of the deposited data

Results flagged for a closer look

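In the model with the library set as a term, 6 genes differed in the effect of TBI with and without BCAS, by the interaction term of edgeR's quasi-likelihood test. Each value is the log2 change of TBI with BCAS minus that without BCAS. It was -6.15 for Sox6 (adjusted p = 0.00115), a transcription factor of medial interneurons, with 47 of its 98 UMIs in 1 library. It was -3.64 for Mid1 (adjusted p = 0.00349), a ubiquitin ligase gene, which stood at 6.31 and 23.1 CPM in the controls, 74.6 and 148 in BCAS, 14.1 and 124 in TBI and 19.7 and 79.1 in BCAS+TBI. It was -1.90 for the muscarinic receptor gene Chrm3 (adjusted p = 0.0166), -2.69 for Nxph1 (adjusted p = 0.0273), 1.02 for the mitochondrial ribosomal RNA mt-Rnr2 (adjusted p = 0.0167) and 1.68 for the predicted gene Gm47283 (adjusted p = 0.0287). The members with over 5 Erbb4 UMIs held 45.9% of the Sox6 UMIs, 47.0% of those of Chrm3, 43.5% of those of Nxph1 and 12.4% of those of Mid1. Without them, Mid1 (-3.64), Gm47283 (1.82) and mt-Rnr2 (0.92) passed, Chrm3 and Nxph1 did not, and Sox6 did not reach the count filter. In the other excitatory nuclei Mid1 was at 10.9 and 10.03 CPM in the controls and 93.95 and 129 in BCAS. It was at 10.9 and 109 in TBI and 11.2 and 86.0 in BCAS+TBI. Gm47283 was there at 236 and 307, 181 and 172, 278 and 98.8, and 259 and 342 CPM, in the same order of groups. In the members it was at 215 and 306, 141 and 147, 230 and 103, and 220 and 313 CPM. The gene mt-Rnr2 was highest in BCAS 1 and BCAS+TBI 2, in the members (7373 and 9608 CPM) and in the other excitatory nuclei (5102.5 and 6914). Whether these differences are larger in the members was not tested. Without the library set none of the 6 passed with the filter on low counts, and with no filter Sox6 (-5.79, adjusted p = 0.00253) and Mid1 (-3.43, adjusted p = 0.0437) passed. In fits with the set that each left out a library, Nxph1 passed in 6 of 8 (-0.19 without TBI 2), Sox6 in 5 (0.65 without BCAS 2), Mid1 in 5 (-1.09 without TBI 2), and Chrm3 (-0.89 without BCAS 2), mt-Rnr2 (0.68 without control 2) and Gm47283 (0.90 without control 2) in 4 each.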

How the results depend on the processing

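The share of dentate granule nuclei never passed the threshold for either surgery. Its difference turned negative with at least 3 Prox1 UMIs (-0.00912 points for TBI, -0.0183 for BCAS), and ranged from -0.0813 to 0.364 for TBI and -0.143 to 0.290 for BCAS as each library was left out. The counts of 0 calls by surgery stayed at 0 with DESeq2, RLE normalization, a minimum count of 30, 500 UMIs, Scrublet, thinning, at least 3 Prox1 UMIs and each library left out. With no filter on low counts there were 2 for the interaction (Sox6, Mid1), 3 for TBI against control (Sox6, Ebf1, Reln), 1 for BCAS against control (Mid1) and 2 for BCAS+TBI against control (Tmem181c-ps, Vip). With the library set as a block the counts were 3 (TBI), 5 (BCAS), 6 (interaction), 10 (TBI against control), 8 (BCAS against control) and 7 (BCAS+TBI against control). The block without nuclei of over 5 Erbb4 UMIs, chosen after seeing the data, gave 2 (Egfem1, Nrg1), 3 (Gm32647, Gpc5, Rmst), 4, 2 (Ebf1, Mid1), 5 and 4. With the library set as a block and each library left out (control 1, control 2, BCAS 1, BCAS 2, TBI 1, TBI 2, BCAS+TBI 1, BCAS+TBI 2), also chosen after seeing the data, the counts were 12, 10, 4, 18, 6, 9, 11 and 4 for TBI, 10, 16, 10, 6, 8, 8, 10 and 5 for BCAS, 17, 3, 29, 5, 6, 6, 12 and 6 for the interaction, 25, 4, 15, 13, 11, 15, 16 and 15 for TBI against control, 17, 9, 22, 6, 13, 10, 12 and 14 for BCAS against control, 17, 14, 12, 7, 7, 7, 11 and 8 for BCAS+TBI against control and 8, 11, 9, 7, 10, 12, 10 and 7 for BCAS+TBI against TBI. The cause was not tested. Between library sets the 1345 calls became 447 with DESeq2, 310 with thinning to the smallest total and 687 to 1260 with a library left out.

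The replicate block, by the numbers of the labels, gave 0 calls in all 7 contrasts and a share p of 0.667 (TBI) and 0.889 (BCAS). The replicate numbers did not pair the libraries: deviations correlated at 0.299 to 0.325 among control, BCAS and TBI and at -0.433 to -0.402 between these and BCAS+TBI.

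Signs turned without BCAS 2, without and with the library set, for Erbb4 with BCAS (-0.64 and -0.070), Vip with BCAS (-2.75 and -2.66), the Sox6 interaction (0.58 and 0.65), and Erbb4 (-1.86 and -0.72) and Etl4 (-1.03 and -0.28) in BCAS against control. The highest values over libraries left out were 2.87, 4.69, 5.14 and 1.86 for these Erbb4, Vip, Erbb4 and Etl4 results, all without the library set, and the lowest for the Sox6 interaction was -9.04 without it and -9.31 with it. Mid1 in TBI against control turned without TBI 2 (-0.40 and -0.55, highest 3.60), Adarb2 with TBI turned without BCAS+TBI 1 (-0.066, highest 0.45) and Dach1 in TBI against control with at least 3 Prox1 UMIs (-0.087). Depth limits the members: 21 to 99 nuclei a library, and 23 or fewer in control 1 and BCAS 1.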

Other observations

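Among genes that were low in the dentate granule nuclei, and not described above, Pdzrn3, a ubiquitin ligase gene, was at 48.4 ± 12.8 CPM (SD, n = 8 libraries) against 374 in the other excitatory nuclei. The transcription factor Sox5 was at 60.6 ± 39.2 against 382 CPM and Rgs6, a regulator of G protein signalling, at 160 ± 46.7 against 726. The nuclear noncoding RNAs Meg3 (2787 ± 598 against 7011 CPM) and Snhg11 (1234 ± 413 against 4067) were also lower in every library without overlap. Gad1, which the rule caps at 2 UMIs together with Gad2, was at 36.7 ± 7.45 CPM against 5.19, and stood at 36.1 CPM in the 423 members with at most 5 Erbb4 UMIs.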
